A study of Mus musculus with 12 samples.

Results

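The genes described here take up, store and export iron, or make, break down and scavenge heme. They are 10 genes, namely Tfrc, Slc11a2, Fth1, Slc40a1, Cp, Alas1, Hmox1, Blvrb, Hp and Hpx, and they were found as the probe sets whose annotated symbol is one of these names. The rule gave 28 of the 45101 probe sets on the array, 3 of which are control probe sets for Tfrc. After a filter on dim probe sets, 8 of the 10 genes were among the 12385 genes tested, and each of the 8 exceeded the median of its own array in all 12 arrays. Hp and Hpx did not pass the filter.

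Total RNA from the renal cortex of ICGN and ICR mice was hybridised to Affymetrix Mouse Genome 430 2.0 arrays, with 3 arrays in each of 4 groups. ICGN is an inbred mouse strain derived from the ICR stock that carries a mutation of Tns2, a focal adhesion protein of podocytes, and the labels give its phenotype as nephrotic syndrome. The groups were ICGN at 4 weeks, set against ICR at 4 weeks, and ICGN at 8 weeks, set against ICR at 8 weeks. ICR is the normal strain of the study, and no group received a treatment. The strains may differ at loci other than Tns2, and these differences cannot be told apart from that of Tns2. The labels state neither sex nor whether an array holds the RNA of 1 mouse or of several mice, and p-values describe only how far these arrays spread, which may be technical.

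Cells take up transferrin-bound iron through the transferrin receptor, hold it in ferritin and release it through ferroportin, after which ferroxidases load it onto transferrin. Heme is made in a pathway whose first enzyme is aminolevulinate synthase, and it is broken down by heme oxygenase into iron, carbon monoxide and biliverdin. The proximal tubule takes up iron and heme proteins from the glomerular filtrate, so that a leaking glomerular filter delivers more of both to it.

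Signals are MAS5 signals after each array was scaled to a common median of 40.4, and they compare a probe set between arrays, not one gene with another. Fold changes are ICGN over ICR on the log2(signal + 11) scale, which understates the change of dim genes, and they are given with their standard error relative to the median gene of the same comparison. That median lay at -0.018 at 4 weeks and at -0.184 at 8 weeks. Adjusted p-values are those of limma over all 12385 genes on the unshifted values, and those at or under 0.05 are named as called. In bulk cortex, fewer cells of a type and less RNA per cell cannot be told apart.

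At 4 weeks, 4 of the 8 tested genes were called, Hmox1 and Cp higher in ICGN and Tfrc and Alas1 lower, where 2.99% of all tested genes were called, 1.6% higher and 1.39% lower. At 8 weeks 4 of the 8 were called again, Cp higher and Tfrc, Slc11a2 and Fth1 lower, but 34.5% of all tested genes were called at that age, 8.49% higher and 26% lower. The median log2 fold change of the 8 genes was -0.13 at 4 weeks and -0.10 at 8 weeks, close to the median of all genes, which is 0 by construction. The genes thus spread to both sides, with -1.53 and 3.31 as the ends at 4 weeks, and -1.45 and 3.13 as the ends at 8 weeks.

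**Figure D1:**
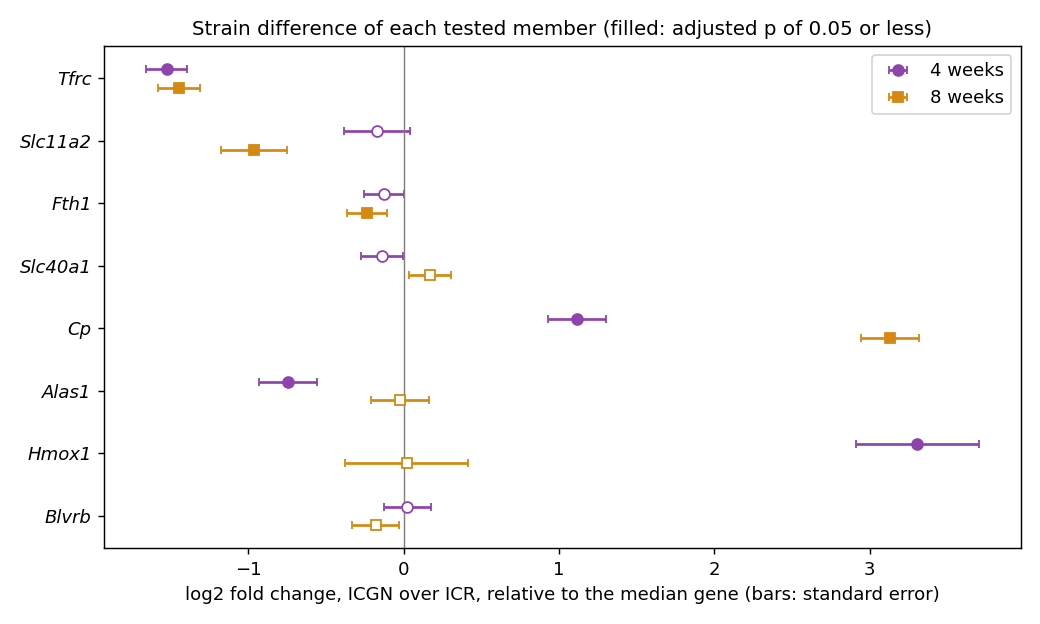
Log2 fold change of ICGN over ICR, relative to the median gene, for each of the 8 tested iron and heme genes at 4 weeks (circles) and 8 weeks (squares). Bars are standard errors, and filled symbols have a limma adjusted p of 0.05 or less. Tfrc lies near -1.5 at both ages (-1.53 and -1.45), Hmox1 is far to the right at 4 weeks only (3.31 against 0.02 at 8 weeks), and Cp is to the right at both ages and farther at 8 weeks (1.12 and 3.13).

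Iron uptake was represented by Tfrc, the transferrin receptor, which carries transferrin-bound iron into the cell, and Slc11a2, the divalent metal transporter that moves iron out of the endosome and across apical membranes. Tfrc was called lower in ICGN at both ages. Its brightest probe set read 869, 641 and 638 in the ICGN arrays at 4 weeks, against 2266, 1883 and 2130 in the ICR arrays at 4 weeks. At 8 weeks it read 540, 575 and 652 in ICGN, against 1787, 1903 and 1831 in ICR. All 6 ICGN arrays lay below all 6 ICR arrays. Tfrc was lower in ICGN by 1.53 ± 0.13 on the log2 scale at 4 weeks, which is 2.88-fold (limma, adjusted p = 2.13e-05). It was lower in ICGN by 1.45 ± 0.13 at 8 weeks, which is 2.72-fold (limma, adjusted p = 1.58e-06). The 8-week difference minus the 4-week difference was 0.09 ± 0.19 and was not called (limma, adjusted p = 0.8).

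The Tfrc reading did not rest on 1 probe set. When every probe set was fitted on its own, 2.29% of all probe sets were called at 4 weeks, 1.1% higher and 1.2% lower, and 28% at 8 weeks, 7.34% higher and 20.6% lower. Of the 3 named Tfrc probe sets, 2 were called lower in ICGN at 4 weeks and the third had a log2 fold change of -1.23 (limma, adjusted p = 0.0509), while at 8 weeks all 3 were called lower, between -1.80 and -1.47. The array also carries 3 control probe sets spread along the Tfrc transcript, and each of the 3 was called lower in ICGN at both ages. The probe set of the 3' part gave log2 fold changes of -1.39 at 4 weeks and -1.43 at 8 weeks, the middle one gave -1.21 and -1.51, and that of the 5' part gave -1.02 and -0.95.

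These controls also report RNA integrity, since labelling starts at the 3' end. The ratio of the 3' to the 5' Tfrc control signal was 2.14 to 2.57 in ICGN and 2.78 to 2.99 in ICR at 4 weeks, and 1.63 to 2.88 in ICGN and 2.24 to 3.32 in ICR at 8 weeks. The same ratio of Actb, the beta-actin control, was 1.34 to 1.49 in ICGN and 1.36 to 1.45 in ICR at 4 weeks, but 1.57 to 1.64 in ICGN and 1.70 to 2.10 in ICR at 8 weeks. The Tfrc ratio was therefore lower in every ICGN array at 4 weeks and overlapped between the strains at 8 weeks. The Actb ratio overlapped at 4 weeks and was lower in every ICGN array at 8 weeks. The part of RNA integrity in the strain differences of either age was not tested.

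**Figure D2:**
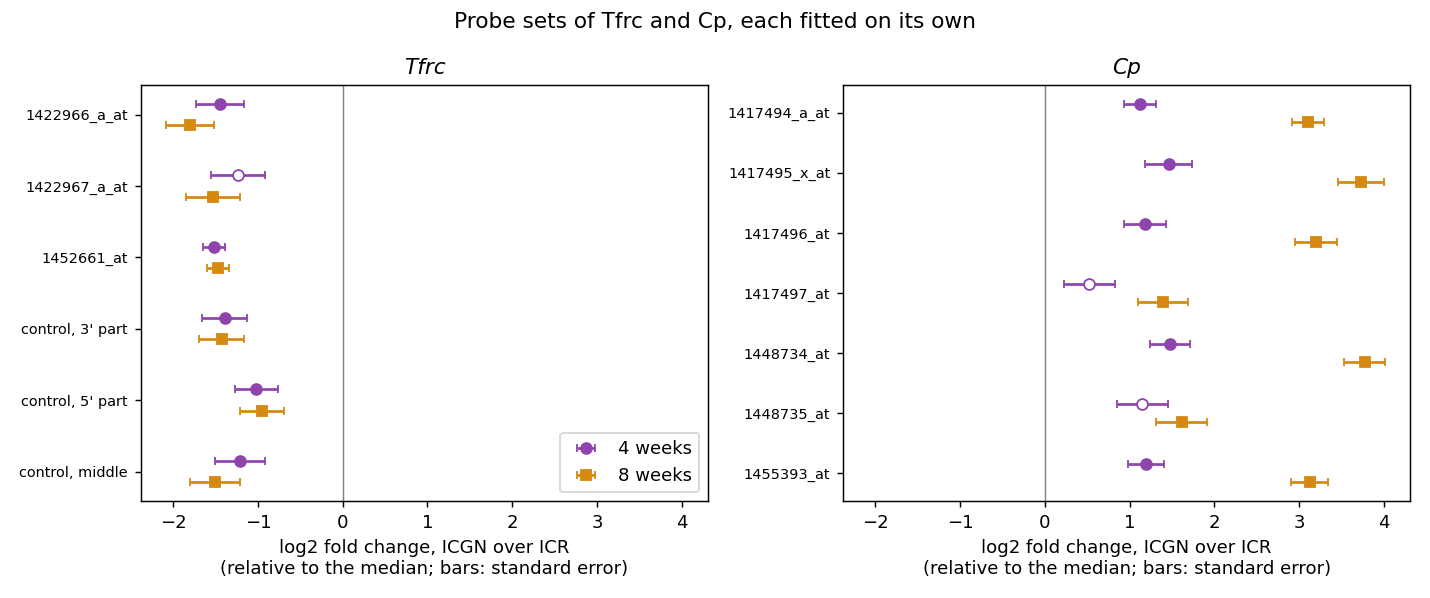
Log2 fold change of ICGN over ICR, relative to the median probe set, for every tested probe set of Tfrc (left, the 3 control probe sets included) and Cp (right), at 4 weeks (circles) and 8 weeks (squares). Bars are standard errors and filled symbols have a limma adjusted p of 0.05 or less. All 6 Tfrc probe sets lie left of 0 and all 7 Cp probe sets right of 0, at both ages.

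The promoter of Tfrc is shown because Tfrc moved in the same direction at both ages. RefSeq promoter windows on GRCm38.p6 were at hand for 6 of the 10 members, Tfrc, Fth1, Cp, Hpx, Alas1 and Blvrb, and Tfrc had 2 windows. The one printed is chr16:32608646-32608925 on the plus strand, with 250 bases before the transcript start at 32608896 and 30 from it on. Capitals mark the match to ACGTG, the core letters of the hypoxia response element, which begins 2 bases before the start.
Tfrc: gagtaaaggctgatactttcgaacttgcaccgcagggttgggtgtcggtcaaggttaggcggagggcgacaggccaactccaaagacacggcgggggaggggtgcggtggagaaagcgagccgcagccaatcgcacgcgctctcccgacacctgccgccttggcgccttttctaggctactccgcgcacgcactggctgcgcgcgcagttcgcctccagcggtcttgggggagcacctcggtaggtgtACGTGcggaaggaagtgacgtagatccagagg
ACGTG was searched on both strands in windows of 300 bases. It occurred in 19.6% of all 32851 windows and in 3 of the 11 member windows, 2 of Tfrc and 1 of Blvrb. The 2 Tfrc windows overlap and hold the same match, so these are matches at 2 positions. A match describes letters and not a bound site.

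Slc11a2 showed no strain difference past the threshold at 4 weeks and a lower signal in ICGN at 8 weeks. Its brightest probe set read 234, 218 and 367 in ICGN at 4 weeks, against 370, 293 and 261 in ICR at 4 weeks, and these groups overlapped. The difference of -0.17 ± 0.21 was not called (limma, adjusted p = 0.759). At 8 weeks it read 184, 193 and 142 in ICGN, against 309, 527 and 375 in ICR, with every ICGN array below every ICR array. The groups did not overlap, in either direction, for 44.5% of all genes at that age. Slc11a2 was lower in ICGN by 0.97 ± 0.21 at 8 weeks, which is 1.95-fold (limma, adjusted p = 0.000929). The 8-week difference minus the 4-week difference was -0.79 ± 0.30 and missed the threshold (limma, adjusted p = 0.0617), so the strain difference is not shown to depend on age. This difference between the ages passed with the filter at the 75th percentile and without ICR replicate 1 of either age, with limma adjusted p-values as low as 0.032.

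The 4 probe sets of Slc11a2 disagreed at 4 weeks. One was called lower in ICGN there, with readings of 59.9, 64.4 and 52.2 in ICGN against 104, 128 and 169 in ICR, 2.01-fold lower in ICGN (limma, adjusted p = 0.0189), and the other 3 were not called. At 8 weeks 3 of the 4 were called lower, and the fourth had a log2 fold change of -0.26 (limma, adjusted p = 0.0709).

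Fth1 encodes the ferritin heavy chain, the ferroxidase subunit of the shell that stores iron. Its signal was 12435, 14465 and 14483 in ICGN at 4 weeks, against 16319, 13896 and 15481 in ICR at 4 weeks, with overlap. At 8 weeks it was 10857, 12994 and 14128 in ICGN, against 15924, 15954 and 18757 in ICR, without overlap, as for 44.5% of all genes at that age. The 4-week difference was -0.13 ± 0.13 (limma, adjusted p = 0.691). At 8 weeks Fth1 was called lower in ICGN by a small amount, -0.24 ± 0.13 (limma, adjusted p = 0.0215). That p-value belongs to the unshifted difference, which was -0.42. This call depended on the scaling of the arrays: under quantile normalisation the value was 0.07 and not called (limma, adjusted p = 0.551). It was also lost under the deposited scaling, without the filter, with only the 6 arrays of that age fitted, and without ICGN replicate 1 or ICR replicate 3 of the 8-week arrays.

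Slc40a1 encodes ferroportin, the iron exporter of the cell membrane. It read 1558 to 1909 in ICGN and 1821 to 1999 in ICR at 4 weeks, and 1663 to 2166 in ICGN and 1721 to 2190 in ICR at 8 weeks. The groups overlapped at both ages. The log2 fold changes were -0.14 ± 0.14 at 4 weeks (limma, adjusted p = 0.669) and 0.17 ± 0.14 at 8 weeks (limma, adjusted p = 0.943), and its second probe set was not called either. Under quantile normalisation the 8-week value was 0.35 and was called (limma, adjusted p = 0.015).

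Cp encodes ceruloplasmin, the copper ferroxidase that oxidises exported iron for binding to transferrin and that the liver secretes into plasma. It was higher in ICGN at both ages, and the difference was larger at 8 weeks. Its brightest probe set read 730, 663 and 978 in ICGN at 4 weeks, against 299, 422 and 364 in ICR at 4 weeks. At 8 weeks it read 3579, 3064 and 4165 in ICGN, against 591, 389 and 408 in ICR. Every ICGN array lay above every ICR array of its age, and the 3 ICGN arrays at 8 weeks stood above all others. Cp was 2.17-fold higher in ICGN at 4 weeks, a log2 fold change of 1.12 ± 0.19 (limma, adjusted p = 0.00393). It was 8.76-fold higher at 8 weeks, 3.13 ± 0.19 (limma, adjusted p = 1.48e-07). The difference between the ages was itself called, at 2.02 ± 0.26 (limma, adjusted p = 0.00208), where 7.9% of all genes had a called interaction of strain and age, 2.21% positive and 5.68% negative.

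Cp has 8 probe sets, of which 7 passed the filter. At 4 weeks 5 of the 7 were called higher in ICGN, and the other 2 had log2 fold changes of 0.53 and 1.15. At 8 weeks all 7 were called higher, between 1.39 and 3.77, and 5 of the 7 had a called positive interaction, as 1.57% of all probe sets had. The size of the difference therefore varied between probe sets of the same gene, while its direction did not.

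The promoter of Cp is shown beside that of Tfrc because the 2 genes moved in opposite directions. Cp also had 2 windows. The one printed is chr3:19956999-19957278 on the plus strand, with 250 bases before the transcript start at 19957249 and 30 from it on, and it holds none of the motifs searched, so it has no capitals. The other Cp window, with its transcript start at 19957054, held none of them either.
Cp: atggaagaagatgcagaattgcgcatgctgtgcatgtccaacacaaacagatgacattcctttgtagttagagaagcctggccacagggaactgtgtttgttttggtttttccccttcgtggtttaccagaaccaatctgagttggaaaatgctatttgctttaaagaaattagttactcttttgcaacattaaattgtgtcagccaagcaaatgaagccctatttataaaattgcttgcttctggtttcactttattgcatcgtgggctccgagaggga
The other motifs searched, also on both strands, were TGACNNNGC, the core of the antioxidant response element, present in 12.4% of all windows and in 1 member window (Hpx), and TTCNNNGAA, the STAT element, present in 8.3% of all windows and in 1 member window (Alas1). Of the printed bases, 63.9% were G or C in the Tfrc window and 40.7% in the Cp window.

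**Figure D3:**
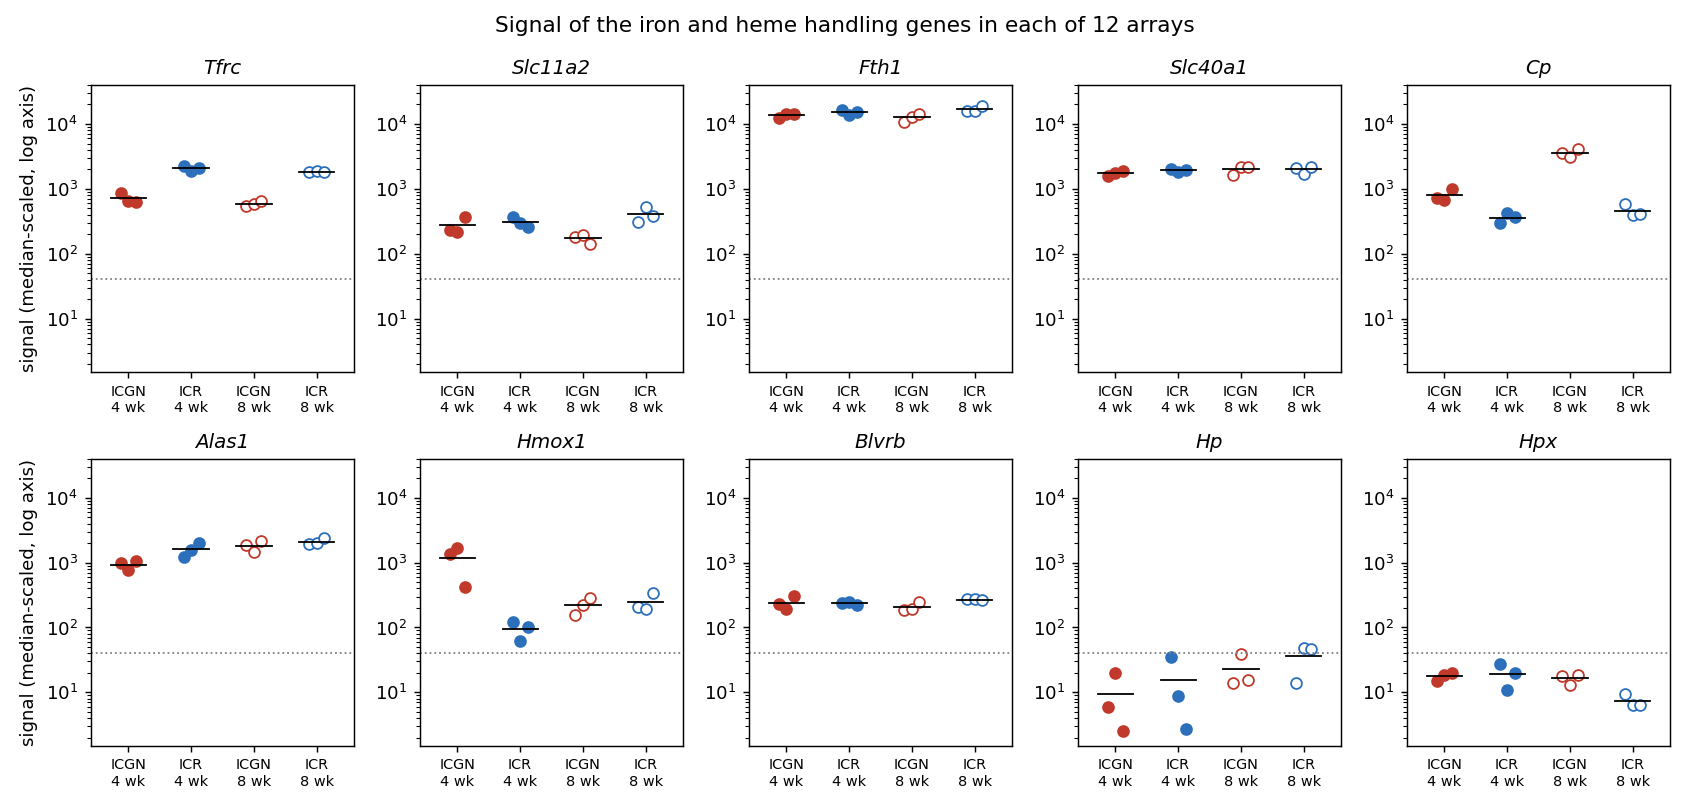
Signal of each of the 10 iron and heme genes in each of 12 arrays on a log axis, with ICGN in red and ICR in blue, filled circles at 4 weeks and open circles at 8 weeks. Horizontal bars are group means of 3 arrays, and the dotted line is the common array median of 40.4. Tfrc is lower in every ICGN array, Cp is highest in the 3 ICGN arrays at 8 weeks, Hmox1 is highest in the 3 ICGN arrays at 4 weeks, and Hp and Hpx lie mostly below the median line.

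Alas1 encodes the housekeeping aminolevulinate synthase, the first and rate-limiting enzyme of heme synthesis outside red cell precursors. It read 974, 757 and 1044 in ICGN at 4 weeks, against 1202, 1565 and 2036 in ICR at 4 weeks, without overlap. At 8 weeks it read 1845, 1475 and 2123 in ICGN, against 1923, 1971 and 2360 in ICR, with overlap. Alas1 was lower in ICGN by 0.75 ± 0.19 at 4 weeks, which is 1.68-fold (limma, adjusted p = 0.0357), and its 8-week difference of -0.03 ± 0.19 was not called (limma, adjusted p = 0.404). The interaction of 0.73 ± 0.26 was not called (limma, adjusted p = 0.193). The 4-week call was fragile: it was lost without the filter, with averaged probe sets, without the mean-variance trend, and without ICGN replicate 1 or 2 or ICR replicate 2 or 3 of the 4-week arrays, and over all alternatives it ranged from -0.93 to -0.49 with limma adjusted p-values up to 0.183. The second Alas1 probe set gave -0.24 and was not called (limma, adjusted p = 0.678).

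Hmox1 encodes heme oxygenase 1, the inducible enzyme that opens the heme ring and releases its iron. It showed the widest strain difference among the 8 genes, at 4 weeks. Its single probe set read 1374, 1694 and 419 in ICGN at 4 weeks, against 123, 61.6 and 101 in ICR at 4 weeks. At 8 weeks it read 156, 219 and 282 in ICGN, against 209, 195 and 337 in ICR. The 4-week groups did not overlap even though 1 ICGN array was well below the other 2, and the 8-week groups overlapped. The ICGN mean at 4 weeks was 1162 ± 663 and the ICR mean 95.2 ± 31.2 (SD, n = 3 each). Hmox1 was 9.9-fold higher in ICGN at 4 weeks, a log2 fold change of 3.31 ± 0.40 (limma, adjusted p = 0.000445), and over all alternatives this value stayed between 2.92 and 3.93. At 8 weeks the difference was 0.02 ± 0.40 (limma, adjusted p = 0.772). The 8-week minus the 4-week difference was called, at -3.28 ± 0.56 (limma, adjusted p = 0.0041). Hmox1 and Cp were the 2 members with a called interaction, and they had opposite signs.

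Blvrb encodes biliverdin reductase B, a flavin reductase that acts on a product of heme breakdown. It read 191 to 300.3 in ICGN and 224 to 248 in ICR at 4 weeks, and 184 to 248 in ICGN and 263 to 273 in ICR at 8 weeks. The 4-week difference was 0.02 ± 0.15 (limma, adjusted p = 0.994). The 8-week groups did not overlap, as for 44.5% of all genes, and the difference of -0.18 ± 0.15 was not called (limma, adjusted p = 0.0761). Leaving out ICGN replicate 3 of either age brought it under the threshold, with adjusted p-values as low as 0.0279.

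Hp and Hpx encode haptoglobin and hemopexin, the plasma proteins that bind free hemoglobin and free heme, both made chiefly by the liver. Hp read 2.51 to 19.6 in ICGN and 2.69 to 35.1 in ICR at 4 weeks, and 13.8 to 38.8 in ICGN and 13.8 to 48.2 in ICR at 8 weeks. It exceeded the array median in 2 arrays, both of ICR at 8 weeks. Hpx read 14.9 to 19.6 in ICGN and 10.98 to 27.2 in ICR at 4 weeks, and 13.2 to 18.6 in ICGN and 6.35 to 9.27 in ICR at 8 weeks, and it exceeded the median in 0 arrays. Neither gene was tested, and no fold is given for signals this dim.

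Within a strain, 8-week arrays were also set against 4-week arrays, but the deposited signals of the 2 ages had been scaled to different targets, with array medians of 75.3 to 108 at 8 weeks and 17.4 to 19.0 at 4 weeks. Age and processing therefore cannot be told apart in these comparisons. In ICGN, 3 of the 8 genes were called between the ages, where 19.1% of all genes were, 6.35% higher and 12.8% lower. Cp rose by 2.26 ± 0.19 (limma, adjusted p = 6.76e-06) and Alas1 by 1.04 ± 0.19 (limma, adjusted p = 0.00237), while Hmox1 fell by 2.09 ± 0.40 at 8 weeks (limma, adjusted p = 0.00164). In ICR, 1 of the 8 genes was called, where 28.7% of all genes were, 18% higher and 10.7% lower. Hmox1 was higher in ICR at 8 weeks by 1.20 ± 0.40 (limma, adjusted p = 0.0235), a call that was lost without ICR replicate 2 at 4 weeks or ICR replicate 3 at 8 weeks. Cp in ICR gave 0.25 ± 0.19 (limma, adjusted p = 0.193) and Alas1 in ICR gave 0.32 ± 0.19 (limma, adjusted p = 0.115), and neither was called there. Alas1 in ICR was called with averaged probe sets (0.49), with the replicate block and without ICR replicate 3 at 4 weeks, with limma adjusted p-values as low as 0.0251, and its second probe set was called at 0.63 (limma, adjusted p = 0.0258). Its age change is thus not shown to differ between the strains.

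The other genes of iron and heme biology were taken as a list of 72, of which 66 have a named probe set and 59 were tested. At 4 weeks 3 of the 59 were called higher in ICGN and 1 lower, against 1.6% of all genes called higher and 1.39% called lower. At 8 weeks 4 were called higher and 21 lower, against 8.49% of all genes called higher and 26% called lower. Lcn2, which passed the filter through the ICGN arrays alone, is among those called higher at both ages. Their median log2 fold change was 0.00 at 4 weeks and -0.13 at 8 weeks. The 8-week split depended on the scaling: 7 higher and 12 lower under quantile normalisation, 4 and 18 when the arrays were centred on the tested genes, and 7 and 13 under the deposited scaling.

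Among the uptake genes was Lcn2, a siderophore-binding protein secreted by injured tubules. It read 114, 94.4 and 106 in ICGN at 4 weeks, against 19.1, 35.9 and 16.4 in ICR at 4 weeks, and 748, 362 and 639 in ICGN at 8 weeks, against 15.2, 0.97 and 0.98 in ICR. No ICR array exceeded its median. Lcn2 passed the filter through the 6 ICGN arrays alone, so a difference was built into its selection, and its fitted size is no estimate of a fold against signals this dim. The fitted log2 fold changes were 1.79 at 4 weeks (limma, adjusted p = 0.00562) and 5.38 at 8 weeks (limma, adjusted p = 1.48e-07), and over all alternatives they ranged from 1.16 to 2.24 at 4 weeks and from 3.77 to 8.01 at 8 weeks. Without an offset the 4-week difference was not called (limma, adjusted p = 0.152). Lrp2, the endocytic receptor megalin of the proximal tubule, was called lower at 8 weeks, at -0.43 (limma, adjusted p = 0.0233), a call lost under quantile normalisation, under the deposited scaling, with averaged probe sets, and without ICGN replicate 1 or ICR replicate 3 at 8 weeks. Mcoln1, a lysosomal channel that releases iron, was called lower at 8 weeks, at -0.39 (limma, adjusted p = 0.011), and lost its call under quantile normalisation, under the deposited scaling and without ICR replicate 3 at 8 weeks.

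Among the export and systemic genes, Heph, the membrane-bound relative of ceruloplasmin, read 162, 195 and 225 in ICGN at 8 weeks, against 150, 102 and 88.6 in ICR. It was called higher in ICGN at that age, by 0.92 ± 0.19 (limma, adjusted p = 0.00827). Hfe, a regulator of iron sensing, read 314, 299 and 311 in ICGN at 4 weeks, against 199.7, 194 and 182 in ICR. Hfe was called higher in ICGN at 4 weeks by 0.67 ± 0.15 (limma, adjusted p = 0.0278) and at 8 weeks by 0.74 ± 0.15 (limma, adjusted p = 0.0112). The 4-week call of Hfe was lost when any of the 6 arrays at that age was left out, and without the filter. Tmprss6, a protease that restrains hepcidin production, was called lower in ICGN at 8 weeks, at -0.43 ± 0.21 (limma, adjusted p = 0.0351). That call was lost without ICGN replicate 1 or 3 or ICR replicate 1 or 3 at 8 weeks, without the filter, under the deposited scaling and when centred on the tested genes, with values from -0.60 to -0.27 over all alternatives. In heme transport, Flvcr1, a heme exporter, was called higher in ICGN at 8 weeks by 1.46 ± 0.21 (limma, adjusted p = 0.000446), and Slc48a1, a lysosomal heme transporter, was called lower by 0.38 ± 0.11 (limma, adjusted p = 0.00131).

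The list of mitochondrial iron and iron-sulfur cluster genes had 12 tested members. By limma 0 of the 12 were called at 4 weeks, with 2 at an unadjusted p of 0.05 or less, and 10 of the 12 were called lower in ICGN at 8 weeks, with a median of -0.35 for the list, where 26% of all genes were called lower. Under quantile normalisation 6 of the 12 were called lower, against 13.5% of all genes. Centred on the tested genes 8 were, against 21.3% of all genes, and under the deposited scaling 7 were, against 12%, and none of the 12 was called higher under these scalings. Examples at 8 weeks were Lyrm4, a cofactor of the cysteine desulfurase, at -0.70 (limma, adjusted p = 0.000376), Slc25a37, the mitochondrial iron importer mitoferrin 1, at -0.61 (limma, adjusted p = 0.00121), Fdx1, a mitochondrial ferredoxin, at -0.55 (limma, adjusted p = 0.00119), Nfs1, the cysteine desulfurase, at -0.52 (limma, adjusted p = 0.00125) and Iscu, the cluster scaffold, at -0.45 (limma, adjusted p = 0.00178). Aco1, iron regulatory protein 1, was called lower too, at -0.47 (limma, adjusted p = 0.00189).

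Heme synthesis had 8 tested genes, Alas1 included, of which 4 were called lower in ICGN at 8 weeks, where 26% of all genes were. Fech, the ferrochelatase that inserts iron into heme, read 1564, 1791 and 1873 in ICGN at 8 weeks, against 3245, 3838 and 3307 in ICR. It was lower in ICGN by 0.80 ± 0.13 at that age (limma, adjusted p = 6.78e-05). At 4 weeks it read 1722, 1949 and 2266 in ICGN, against 2008, 1711 and 1956 in ICR. The ICR readings were thus higher at 8 weeks than at 4 weeks, while the ICGN readings of the 2 ages overlapped. Age and processing cannot be told apart there. The strain difference of Fech at 4 weeks was 0.08 ± 0.13 (limma, adjusted p = 0.9), and the interaction was called at -0.87 ± 0.18 (limma, adjusted p = 0.00487). Alad and Uros, 2 enzymes of the middle of the pathway, were both at -0.34 at 8 weeks (limma, adjusted p = 0.00528 and 0.00463), and Alad lost its call under quantile normalisation, at -0.16 (limma, adjusted p = 0.16). Cpox, the coproporphyrinogen oxidase, read 968, 919 and 1122 in ICGN at 4 weeks, against 629, 536 and 341 in ICR at 4 weeks. It was called higher in ICGN at 4 weeks, by 1.04 ± 0.22 (limma, adjusted p = 0.0192). That call was lost when its probe sets were averaged, at 0.43, and without any 1 of the 3 ICGN arrays or ICR replicate 3 at 4 weeks.

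**Figure D4:**
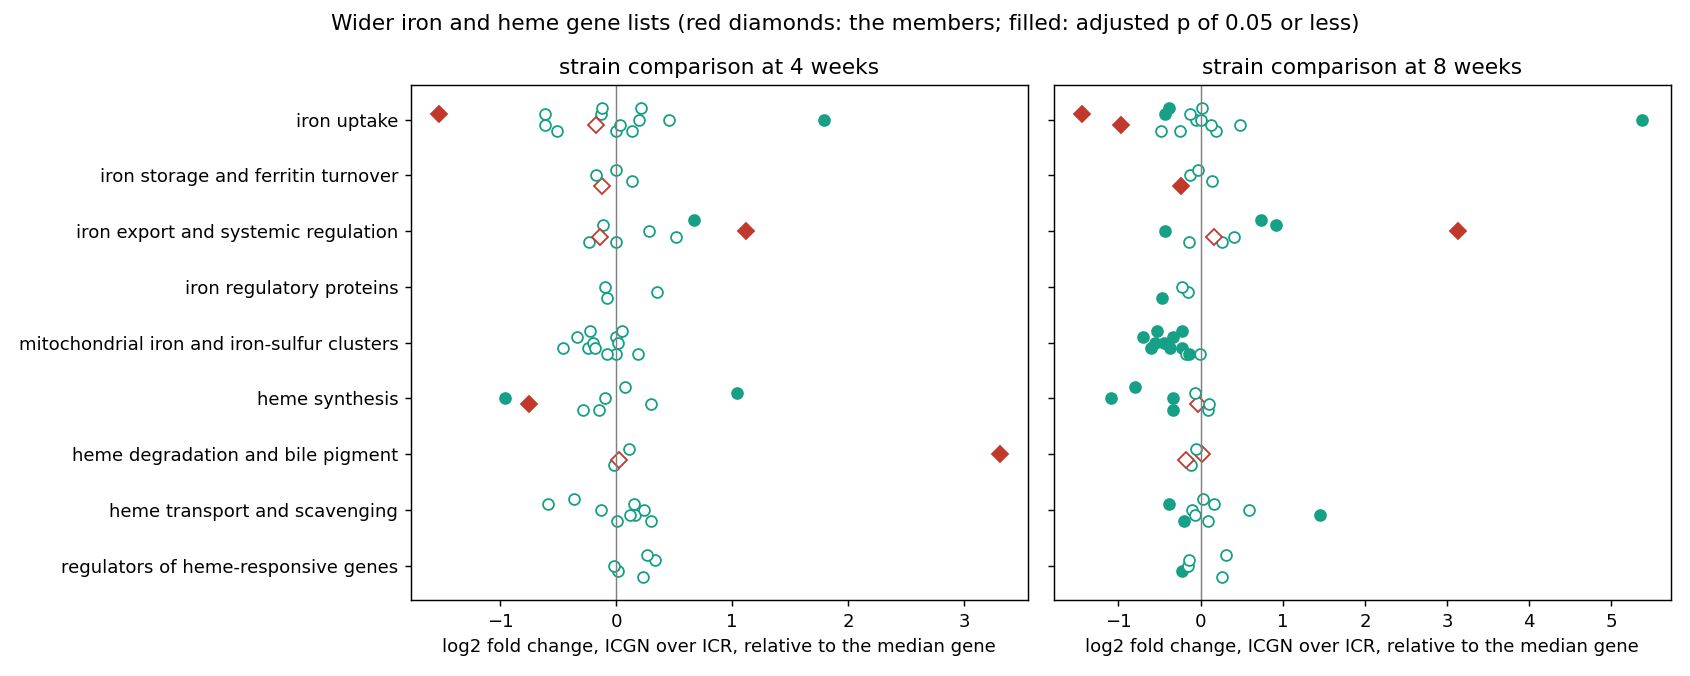
Log2 fold change of ICGN over ICR, relative to the median gene, for the tested genes of 9 lists of iron and heme genes at 4 weeks (left) and 8 weeks (right). Red diamonds are the 8 tested members, green circles the other genes, and filled symbols have a limma adjusted p of 0.05 or less. At 8 weeks 10 of the 12 mitochondrial genes are filled and lie left of 0, where 26% of all genes were called lower. Lcn2 lies at 5.38, but it passed the filter through the ICGN arrays alone, and this value is no estimate of a fold.

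Alas2, the aminolevulinate synthase of red cell precursors, was lower in ICGN at both ages and belongs to both the heme synthesis list and the red cell marker list. It read 371, 359 and 196 in ICGN at 4 weeks, against 646, 560.04 and 582 in ICR at 4 weeks, and 73.1, 66.4 and 67.1 in ICGN at 8 weeks, against 210.4, 154 and 184 in ICR. Alas2 was lower in ICGN by 0.96 ± 0.19 at 4 weeks (limma, adjusted p = 0.0105) and by 1.08 ± 0.19 at 8 weeks (limma, adjusted p = 0.000211). Of 12 red cell markers 6 had a named probe set, namely Alas2, Slc4a1, Epb42, Hba-a1, Hba-a2 and Hbb-b2. In all 3 arrays of a group, 3 of the 6 exceeded the array median in each 4-week group and 2 of the 6 in each 8-week group. Their summed signal was 575 to 826 in ICGN and 1030 to 1084 in ICR at 4 weeks, and 302 to 321 in ICGN and 407 to 533 in ICR at 8 weeks, without overlap at either age. Much of that sum was Alas2, and without Alas2 the summed signals of the strains overlapped at both ages. Of the 3 tested red cell markers, 1 was called lower in ICGN at 4 weeks, where 1.39% of all genes were. At 8 weeks 2 were, where 26% of all genes were, and 1 under each of the other scalings. The log2 fold changes of the 3 ran from -0.96 to -0.01 at 4 weeks and from -1.08 to 0.26 at 8 weeks.

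Red cell precursors and macrophages are both rich in iron and heme genes, so marker sums of such cells were read beside the members. The summed signal of 11 macrophage markers was 3740 to 4261 in ICGN and 2287 to 3133 in ICR at 4 weeks, and 6693 to 8396 in ICGN and 3215 to 4462 in ICR at 8 weeks. Of 10 tested macrophage markers, 5 were called higher in ICGN at 4 weeks and 9 at 8 weeks, where 1.6% and 8.49% of all genes were. The summed macrophage signal thus differed between the strains in the same arrays as Hmox1, Cp and Tfrc. The summed red cell signal separated the strains only with Alas2 in it. The part of either cell type in those results was not tested.

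Cp is also a liver gene, and 7 of 8 listed hepatocyte markers had a named probe set. Their summed signal was 292 to 407 in ICGN and 236 to 279 in ICR at 4 weeks, and 398 to 741 in ICGN and 283 to 447 in ICR at 8 weeks. Much of that sum was Fga, which read 574, 272 and 461 in ICGN at 8 weeks, against 123, 259 and 165 in ICR. In all 3 arrays of a group, 2 of the 7 exceeded the array median, but only 1 in ICR at 8 weeks. The tested markers spanned log2 fold changes of -0.56 to 0.69 at 4 weeks and -0.47 to 1.39 at 8 weeks. By limma 0 of the 4 tested hepatocyte markers were called at 4 weeks, with 3 at an unadjusted p of 0.05 or less. At 8 weeks 1 was called higher, where 8.49% of all genes were. The proximal tubule, where megalin and much of the renal iron uptake lie, had summed signals over 10 markers of 55510 to 72920 in ICGN and 65010 to 79710 in ICR at 4 weeks. At 8 weeks the sums were 45590 to 56830 in ICGN and 73740 to 86500 in ICR, without overlap. By limma 7 of 10 proximal tubule markers were called lower at 8 weeks, where 26% of all genes were. Under quantile normalisation 3 of 10 were, where 13.5% of all genes were. Centred on the tested genes 7 of 10 were, where 21.3% of all genes were, and under the deposited scaling 5 of 10, where 12% were. Endothelial markers also separated at 8 weeks, with sums over 6 markers of 2297 to 2819 in ICGN and 3376 to 4178 in ICR. Of the 6, 5 were called lower, and 3 under each of the other scalings, beside the same shares of all genes. Loop and distal tubule sums over 6 markers were 21410 to 27170 in ICGN and 27280 to 33310 in ICR at 4 weeks. At 8 weeks they were 14750 to 19720 in ICGN and 20860 to 24150 in ICR. Of these 6, 2 were called lower at each age, where 1.39% and 26% of all genes were. The 6 ran from -1.95 to 0.33 at 4 weeks and from -2.74 to 0.20 at 8 weeks. The lower 8-week signal of Slc11a2, Lrp2 and the mitochondrial genes stood beside this lower tubule and endothelial signal, whose part was not tested. Lrp2 is itself one of the proximal tubule markers and is counted in that signal.

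**Figure D5:**
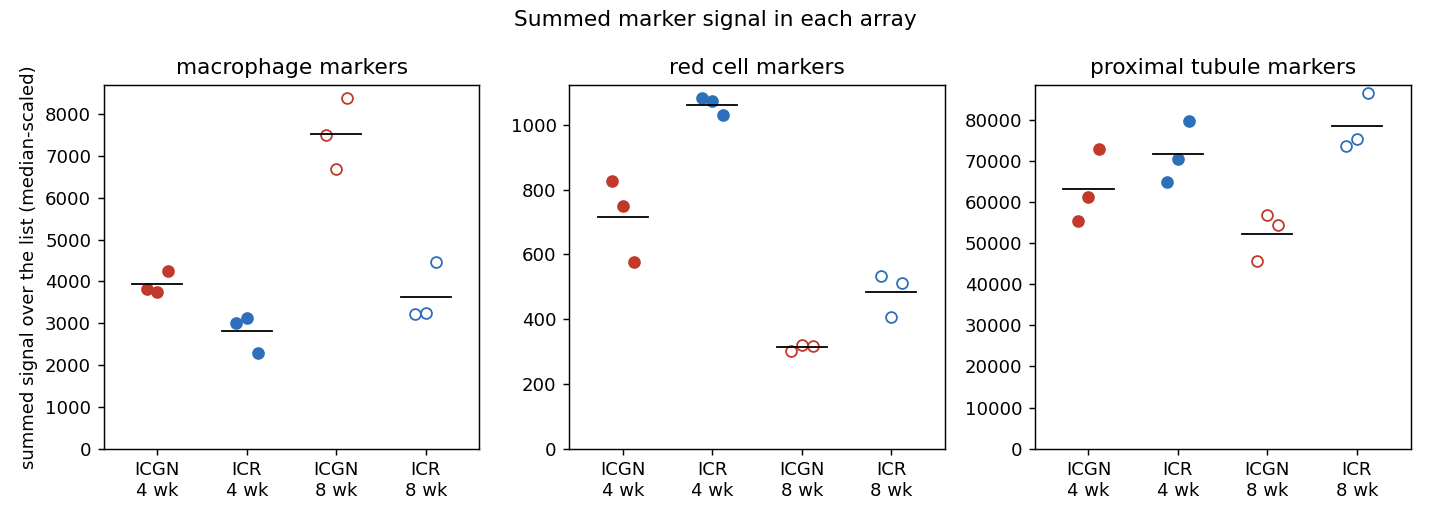
Summed signal of macrophage, red cell and proximal tubule markers in each of 12 arrays on linear axes that start at 0, with ICGN in red and ICR in blue, filled circles at 4 weeks and open circles at 8 weeks. Bars are group means of 3 arrays. Macrophage sums are higher and red cell sums lower in every ICGN array than in the ICR arrays of the same age, and proximal tubule sums separate at 8 weeks. Without Alas2 the red cell sums of the strains overlap at both ages.

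Genes whose signals ran most like each member were found by the root mean square difference of log2 values over the 12 arrays, each gene centred on its own mean. For Tfrc these were St3gal6 at 0.22, H2bc18 at 0.27 and Tmem169 at 0.29, where the median over all genes was 0.80. For Cp they were Cd44, Vcam1 and Mpeg1, with differences of 0.23, 0.31 and 0.39, and Mpeg1 is one of the macrophage markers. Hmox1 had no gene as close: Cyp24a1 came nearest at 0.78, followed by Slc25a48 and Cry1. Alas1 ran closest to H2-Ke6 at 0.21, then Sik1 and Nat2. Slc40a1, which hardly varied, had Nsd3 at 0.05, Samd9l at 0.07 and Utp11 at 0.08 as its nearest. The likeness is a description over arrays that share strain and age.

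Tns2 was read as a check of the strain labels. It was 66.5 to 96.2 in ICGN and 318 to 343 in ICR at 4 weeks, and 48.4 to 114 in ICGN and 309.6 to 337 in ICR at 8 weeks, so all 6 ICGN arrays lay below all 6 ICR arrays. Where the probes lie relative to the mutation was not examined. Correlations between arrays of a group were 0.978 to 0.989.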

How the data were processed

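Renal cortex RNA of 12 samples was measured on 12 arrays. The authors' deposited values are intensity values (MAS5 signal, per the submitters' processing notes), 1 per probe set; further settings are not given in the sources used here. Each array's trimmed mean was 100 at 4 weeks and 500 at 8 weeks. The arrays were scaled to a common median of 40.4, 11 was added (the 25th percentile was 11.1) and log2 was taken. Probe sets above their own array's median in at least 3 of 12 arrays were kept (24827 of 45101), and the one with the highest mean stood for its gene. Of all probe sets, 34958 carry 1 symbol, 932 several and 9211 none, from GEO's platform annotation. limma 3.58.1 in R 4.3.3 fitted 4 group means over all 12 arrays (8 residual degrees of freedom, mean-variance trend, Benjamini-Hochberg adjustment), and the fit was tested on simulated data. The number of arrays limits the precision. Alternatives changed the scaling, offset, filter, probe set rule, trend, arrays fitted and replicate block, and left out each array in turn. The members and gene lists were chosen with earlier results of these data known. Named were all members, called genes of the wider lists (at most 6 a list, the larger changes first), the 3 genes most like each of 5 members, Tns2, and single markers where a marker sum is described.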

Additional observations from a re-analysis of the deposited data

Results flagged for a closer look

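The strain difference of Hmox1 at 8 weeks minus that at 4 weeks was -3.28 ± 0.56 on the log2 scale (limma, adjusted p = 0.0041), with all 3 ICGN arrays above all 3 ICR arrays at 4 weeks and overlap at 8 weeks. The same difference for Cp was 2.02 ± 0.26 (limma, adjusted p = 0.00208), with ICGN above ICR in all arrays at both ages. Both drew attention because the strain effect itself differed between the ages by the interaction test. The ages also differ in how the authors scaled the arrays, and the difference is taken between contrasts made within each age.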

How the results depend on the processing

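The strain differences of Tfrc and Cp at both ages, that of Hmox1 at 4 weeks and the interactions of Hmox1 and Cp kept their direction and stayed past the threshold under every alternative run, where Cp lay in 0.96 to 1.26 (4 weeks) or 2.85 to 3.33 (8 weeks), Tfrc between -1.68 and -1.40 and between -1.60 and -1.32, and the interactions between -3.90 and -2.89 for Hmox1 and between 1.69 and 2.22 for Cp. Of 100 single-gene results, 75 kept their side of the threshold throughout; 54 of these kept 1 sign and 21, none of them called, took both signs. Fth1 at 8 weeks turned to 0.07 under quantile normalisation, and the cause was not tested. Quantile normalisation called 563 genes at 4 weeks against 370, and fitting every probe set called 4289 against 2371 for age in ICGN and 6023 against 3556 for age in ICR, where more features were tested. For age in ICR, 2 members were called against 1 under quantile normalisation, without a filter, with averaged probe sets and with the replicate block. The share of called genes that were higher was 24.6% at 8 weeks, against 50.4% under quantile normalisation, 36% centred on the tested genes and 60% under the deposited scaling; for the interaction it was 28%, against 54%, 40.2% and 58.5%; for age in ICR it was 62.7%, against 45.2% under quantile normalisation. Leaving out 1 array gave 173 (without ICGN replicate 2 at 4 weeks) to 418 genes and 3 to 4 members at 4 weeks, 3032 to 4252 genes and 3 to 5 members at 8 weeks, 474 (without ICGN replicate 3 at 4 weeks) to 1061 genes and 2 to 3 members for the interaction, 1473 to 2464 genes and 3 to 4 members for age in ICGN, and 2601 to 3813 genes and 0 to 2 members for age in ICR. Deviations of arrays with the same replicate number correlated between -0.103 and 0.116, and those with other numbers between -0.166 and 0.15. This gave no sign that the numbers pair the samples, but 3 arrays per group cannot exclude it. With the replicate block 393 genes were called at 4 weeks against 370, 4528 at 8 weeks against 4277 and 1321 for the interaction against 978. For age in ICGN and ICR the block gave 2588 and 3851 genes, against 2371 and 3556. Signals near or below the array median, as of Hp, Hpx and Lcn2 in ICR, limit what folds can be read.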
